A study of Arabidopsis thaliana with 12 samples.

Results

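The genes described here are 84 Arabidopsis thaliana genes that carry only an AT locus code and that lay on the positive side of the deposited ratio on every array of the series. They were chosen from the values themselves: the log2 ratio was above 0 on all 12 arrays and its mean over the 12 was at least 0.8. The choice was made among 8018 probes listed with 1 locus-only gene, which stand for 7953 genes, of 21500 probes in all, and gave 84 probes for 84 genes. Of the 8018 probes, 721 were above 0 on all 12 arrays and 117 had a mean of at least 0.8. Each array compared RNA from the aerial parts of plants re-transformed with a rice full-length cDNA clone with RNA from untransformed Col-0, the common laboratory accession, with transformant RNA labelled with Cy3 and Col-0 RNA with Cy5. The 6 lines are named by their clones, AK069096, AK073112, AK073675, AK065297, AK102323 and AK073210, with 2 arrays each, and the plants grew at 22 °C under 16 h of light and 8 h of dark. No source used here gives the product of a clone, the promoter that drives it or the age of the plants. Nor does one say that replicate arrays stand for separate plants, so p-values measure the spread between arrays.

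Values are log2 ratios, obtained from deposited values taken as log10. Every size printed here rests on that reading. Which RNA is the numerator could not be settled, because the titles put the transformant first while the scanner program usually divides Cy5 by Cy3. A positive value therefore gives the side of the ratio on an array, not which of the 2 RNAs held more transcript. Transformant RNA carried Cy3 and Col-0 RNA Cy5 on every array, and no array had the dyes exchanged. Whether the dyes, rather than a difference between the RNAs, gave a probe the same sign on all arrays was therefore not tested. A ratio holds no level, so the tissue could not be checked against its markers, and fewer cells of a type cannot be told apart from less RNA per cell.

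Gene families are given as background, from general knowledge of Arabidopsis proteins, because the tables used here pair these genes with a locus code only. A family was given to 65 of the 84 genes, in 12 groups, and 19 were left without one. Glutaredoxins and thioredoxins are small proteins that reduce disulfides, and land plants have a class of glutaredoxins of their own that acts with transcription factors of the TGA type. MYB-like, Dof, CCT and B3 proteins are transcription factors, several of which act in light, clock and seed responses. UDP-glycosyltransferases, BAHD acyltransferases and small-molecule methyltransferases modify plant metabolites, and MATE proteins carry such metabolites and toxins across membranes.

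The arrays differed in how widely their ratios spread. The standard deviation of the log2 ratio over all probes was smallest for AK102323 replicate 2, at 0.40, and largest for AK073112 replicate 2, at 0.68, and the median of all probes was 0 on every array. The 2 arrays of AK073112 were unlike each other. Over all probes they correlated at 0.352, against 0.586 or more for the other lines, and replicate 2 correlated with the AK069096 arrays at 0.799 and 0.816. Over the 84 genes alone, a range that the choice of genes narrows, replicate 2 of AK073112 correlated at 0.813 and 0.834 with AK069096 and replicate 1 at 0.058 and 0.17. Replicate 2 lay above replicate 1 for 70 of the 84 genes, with a median absolute difference of 0.91, against 0.16 to 0.31 in the other lines. Over all probes it lay above for 10132 of 21494. The median absolute difference was 0.36 there, against 0.092 to 0.17 in the other lines. Differences found in the other lines are given with and without the AK073112 arrays; those of AK073112 itself rest on these unlike arrays.

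**Figure D1:**
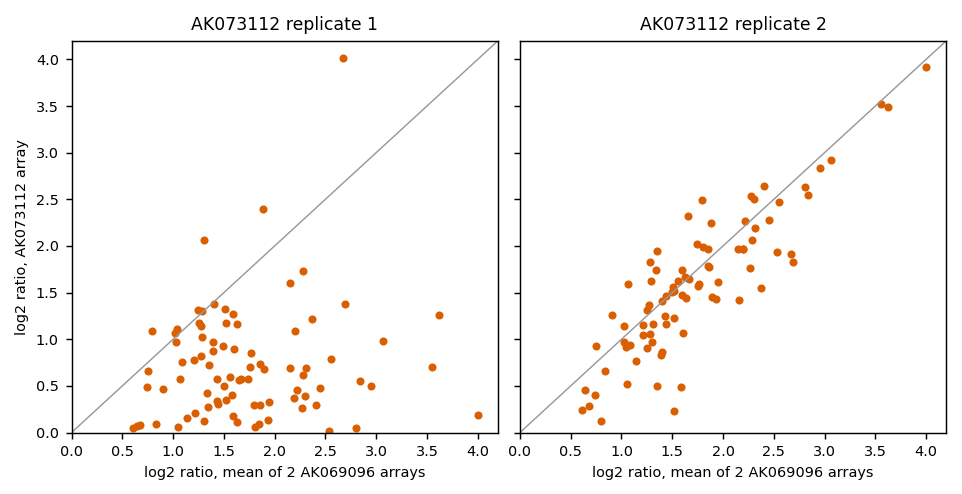
Log2 ratio of the 84 genes on AK073112 replicate 1 (left) and replicate 2 (right) against the mean of the 2 AK069096 arrays; the grey line marks equal values and each point is a gene. On replicate 2 the points follow the line (r = 0.813 and 0.834 with the single arrays), while on replicate 1 most lie well below it.

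Over the 12 arrays the means of the 84 genes ran from 0.80 to 2.30 with a median of 0.99. A mean of at least 1 was reached by 41 genes, one of at least 1.5 by 10 and one of at least 2 by 3. These levels are what the genes were chosen on and were not tested. Just inside the minimum stood AT2G45840 (0.82), AT3G53830 (0.81) and AT5G55970 (0.80), and just outside it, also positive on all arrays, AT2G17710 (0.79), AT4G24700 (0.79) and AT5G01250 (0.78). By array, the median of the 84 genes was highest on AK069096, at 1.61 and 1.64, and on AK073112 replicate 2, at 1.57. It was lowest on AK073112 replicate 1, at 0.61, and lay between 0.71 and 1.07 on the other 8 arrays. Divided by the standard deviation of all probes on the same array, the medians ran from 1.12 on AK073112 replicate 1 to 2.64 on AK069096 replicate 2. Both AK069096 arrays and AK073112 replicate 2, with the highest medians, also had the widest spread of all probes (SD 0.62 to 0.68). AK073112 replicate 1, with the lowest median, had an SD of 0.54, so the order did not hold on all arrays. The part of that spread in the differences below was not tested.

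**Figure D2:**
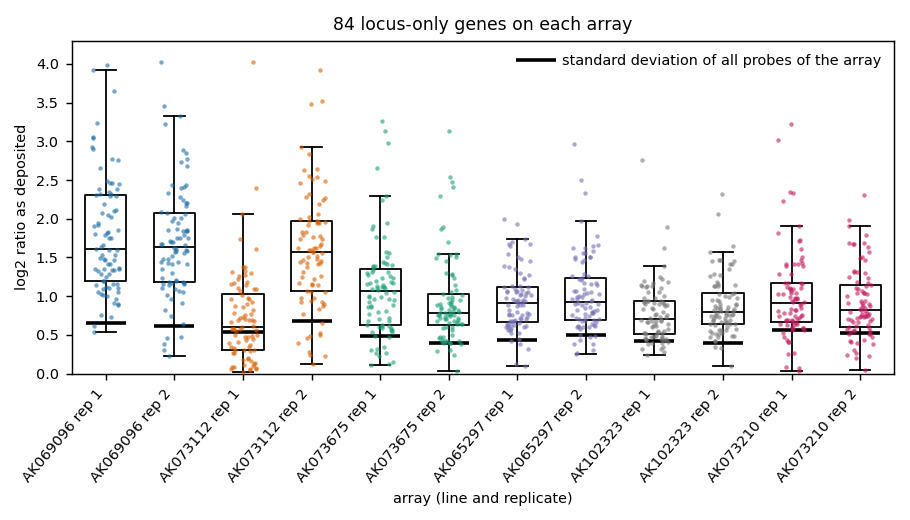
Log2 ratio of the 84 genes on each of the 12 arrays; points are genes, boxes give the median and quartiles with whiskers to 1.5 times the box, and black bars give the standard deviation of all probes of the array. The medians of both AK069096 arrays and of AK073112 replicate 2 lie between 1.57 and 1.64, and that of AK073112 replicate 1 is 0.61.

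AT4G08570, whose protein belongs to the heavy-metal-associated family of small metal-binding proteins, had the highest mean, 2.30 ± 0.76 (SD over 12 arrays). It stood at 2.47 and 1.97 on AK069096, 0.45 and 2.27 on AK073112, 2.97 and 3.13 on AK073675, 1.99 and 2.96 on AK065297, 1.89 and 2.32 on AK102323 and 3.23 and 1.99 on AK073210. Both AK073675 arrays and AK073210 replicate 1 lay high, and AK073112 replicate 1 alone was below 1. AT2G29370, a short-chain dehydrogenase of the tropinone reductase type, followed with 2.03 ± 0.72. Its values were 2.66 and 2.40 on AK069096, 0.020 and 1.94 on AK073112, 2.24 and 1.86 on AK073675, 1.93 and 2.50 on AK065297, 2.76 and 2.06 on AK102323 and 2.34 and 1.67 on AK073210. Replicate 1 of AK073112 was near 0 and the other 11 arrays lay above 1.5. AT1G80130, a protein with tetratricopeptide repeats, had a mean of 2.02 ± 0.97. Its values were 3.92 and 3.32 on AK069096, 1.26 and 3.49 on AK073112, 1.87 and 1.51 on AK073675, 1.67 and 1.66 on AK065297, 1.13 and 1.36 on AK102323 and 1.41 and 1.63 on AK073210, and all 12 were above 1, with AK069096 and AK073112 replicate 2 well above the rest.

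AT2G18370 belongs to the lipid transfer protein family, whose members bind lipids in the wall and cuticle. It had a mean of 1.89 ± 1.03 with 3.05 and 2.85 on AK069096, 0.49 and 2.84 on AK073112, 3.27 and 2.29 on AK073675, 1.67 and 2.34 on AK065297, 1.14 and 1.42 on AK102323 and 1.10 and 0.23 on AK073210, so that AK069096 and AK073675 replicate 1 were high and AK073210 replicate 2 and AK073112 replicate 1 low. AT1G67360 encodes a protein of the rubber elongation factor family, found on lipid droplets. Its mean was 1.71 ± 1.12 and its values 3.65 and 3.45 on AK069096, 0.70 and 3.52 on AK073112, 1.30 and 1.05 on AK073675, 1.06 and 1.15 on AK065297, 1.05 and 1.13 on AK102323 and 1.28 and 1.19 on AK073210. In all, 3 arrays, both of AK069096 and AK073112 replicate 2, lay above 3, and the other 9 lay between 0.70 and 1.30. AT1G43910, an AAA-type ATPase, had a mean of 1.67 ± 0.59 and 2.38 and 2.73 on AK069096, 0.78 and 2.47 on AK073112, 1.57 and 1.54 on AK073675, 1.46 and 1.55 on AK065297, 0.93 and 1.29 on AK102323 and 1.73 and 1.57 on AK073210. The same arrays were the highest there, by a smaller margin.

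AT1G61930 is a gene of the DUF584 family, which is linked to senescence. It had 2.35 and 2.20 on AK069096, 0.61 and 2.53 on AK073112, 2.29 and 2.41 on AK073675, 1.31 and 1.59 on AK065297, 0.67 and 0.90 on AK102323 and 1.39 and 1.67 on AK073210, a mean of 1.66 ± 0.70, with AK069096, AK073675 and AK073112 replicate 2 above 2. AT1G70000, a MYB-like transcription factor gene, had a mean of 1.65 ± 0.51 and 2.77 and 1.85 on AK069096, 0.69 and 2.19 on AK073112, 1.77 and 1.55 on AK073675, 1.50 and 1.62 on AK065297, 1.22 and 1.45 on AK102323 and 1.41 and 1.79 on AK073210. Its values stayed close to each other outside AK069096 and AK073112. AT1G34060, of the alliinase and tryptophan aminotransferase family, had the widest spread of the 84 genes, with an SD of 1.25 between the 6 line means. It stood at 3.99 and 4.02 on AK069096, 0.19 and 3.92 on AK073112, 1.15 and 0.76 on AK073675, 1.04 and 0.96 on AK065297, 0.72 and 0.84 on AK102323 and 1.06 and 0.82 on AK073210. Here 3 arrays were near 4, and the other 9 were at or below 1.15.

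AT5G42760, a gene of the leucine carboxyl methyltransferase family, had a mean of 1.52 ± 0.61 and 2.75 and 1.55 on AK069096, 1.60 and 1.43 on AK073112, 0.86 and 2.48 on AK073675, 1.48 and 1.97 on AK065297, 1.13 and 0.76 on AK102323 and 1.17 and 1.09 on AK073210, with replicates of AK069096 and AK073675 far apart. AT3G62960, a glutaredoxin gene of the class found in land plants, had 2.11 and 1.75 on AK069096, 0.14 and 1.43 on AK073112, 1.34 and 1.30 on AK073675, 1.64 and 1.78 on AK065297, 1.10 and 1.46 on AK102323 and 3.02 and 0.43 on AK073210 (mean 1.46 ± 0.74). The AK073210 arrays held both its highest value and one of its lowest. AT1G15410 encodes a protein of the aspartate and glutamate racemase family. It had 2.92 and 2.68 on AK069096, 0.054 and 2.63 on AK073112, 1.23 and 1.29 on AK073675, 1.27 and 1.23 on AK065297, 0.92 and 1.04 on AK102323 and 1.05 and 1.003 on AK073210 (mean 1.44 ± 0.85), with both AK069096 arrays above all others.

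**Figure D3:**
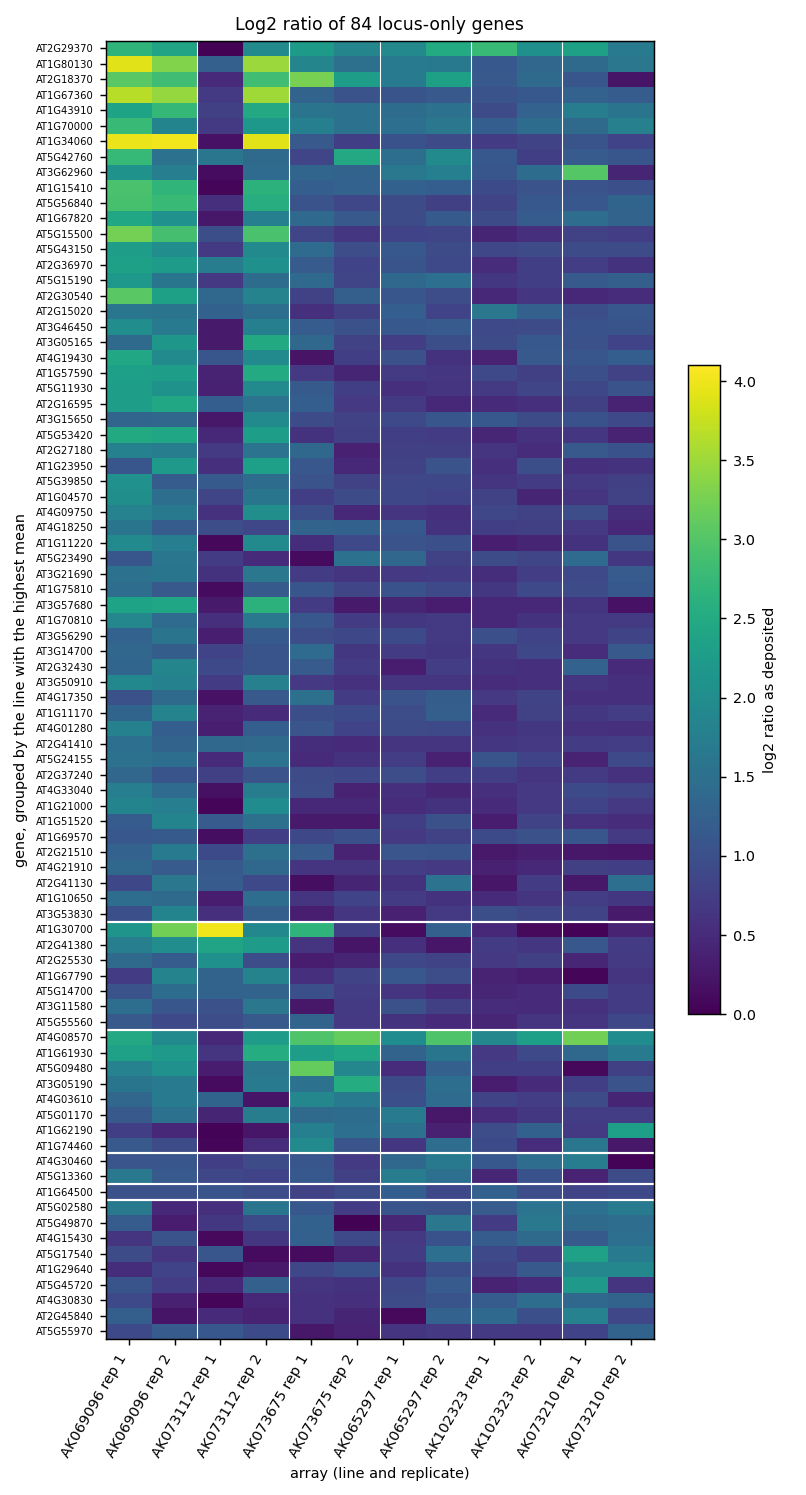
Log2 ratio of the 84 genes (rows) on the 12 arrays (columns), on a colour scale from 0 to about 4; rows are grouped by the line with the highest mean and ordered by the mean over 12 arrays within a group. The largest block, 57 genes, has its highest line mean in AK069096, and in it AK073112 replicate 2 resembles AK069096 while replicate 1 does not.

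Lines were compared by setting each against the average of the 5 others, in a fit over all 21494 probes with a value on every array (limma, Benjamini-Hochberg adjustment over all of them, threshold 0.05). The line mean was highest in AK069096 for 57 of the 84 genes, in AK073210 for 9, in AK073675 for 8, in AK073112 for 7, in AK065297 for 2 and in AK102323 for 1. It was lowest in AK102323 for 29, in AK073112 and AK073675 for 16 each, in AK073210 for 14, in AK065297 for 9 and in AK069096 for none. Over all probes AK069096 was the highest line for 25.4% and the lowest for 23.3%. For the other lines these shares were 17.1% and 16.4% in AK073210, 14.7% and 15.1% in AK073675 and 17.7% and 20.4% in AK073112. They were 12.8% and 12.2% in AK065297 and 12.3% and 12.6% in AK102323. The genes were chosen on the mean over these same arrays, in which an array of wide spread weighs more, so a higher ratio in AK069096 is partly fixed by the choice. The mean of the other 5 lines was under 0.8 for 21 of the 84 genes when AK069096 was set apart, 12 for AK073112, 6 for AK073210, 3 for AK102323 and 1 each for AK073675 and AK065297. The counts and medians below are therefore descriptions, and no excess over all probes is read from them, with or without the AK073112 arrays.

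Of the 84 genes, 7 differed among the 6 lines by the F test, against 3.36% of all probes that did. Against the other 5 lines 7 genes passed in AK069096, all with a higher ratio, where 0.703% of all probes passed in that direction. In AK073112, 5 passed, 4 with a higher and 1 with a lower ratio, against 2.79% of all probes on either side. In AK073210 the count was 1, with a higher ratio, against 1.45% of all probes on either side. No gene passed in AK073675 (0.0% of all probes), AK065297 (0.0093%) or AK102323 (0.0791%) by limma. An unadjusted p under 0.05 was found there for 14, 6 and 14 of the 84 genes. Of all 21494 probes, 2409, 2204 and 2373 had one. The median difference of the 84 genes from the other 5 lines was 0.74 in AK069096, with 75 genes above 0, and 0.071 in AK073112. It was -0.17 in AK073675, -0.16 in AK065297, -0.35 in AK102323 and -0.21 in AK073210. Over all probes these medians lay between -0.015 and 0.0044.

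A pair of neighbouring genes was among those that passed in both AK069096 and AK073112. AT2G41380, a gene of the small-molecule methyltransferase family, stood at 1.76 and 2.01 on AK069096, 2.39 and 2.24 on AK073112, 0.63 and 0.24 on AK073675, 0.56 and 0.25 on AK065297, 0.73 and 0.64 on AK102323 and 1.11 and 0.73 on AK073210. All 4 arrays of AK069096 and AK073112 lay above the other 8, and AK073112 was the higher line. Its difference from the other 5 lines was 1.45 ± 0.15 (SE, n = 2 arrays against 10, adjusted p = 0.0102) in AK073112 and 0.93 ± 0.15 (adjusted p = 0.0424) in AK069096. AT2G41410 encodes a calcium sensor with EF hands and lies with 2 coding genes between it and AT2G41380. It had 1.50 and 1.30 on AK069096, 1.38 and 1.42 on AK073112, 0.53 and 0.50 on AK073675, 0.61 and 0.61 on AK065297, 0.64 and 0.68 on AK102323 and 0.72 and 0.74 on AK073210. Its replicates were close in every line, and the 4 arrays of AK069096 and AK073112 again lay above the other 8. It differed by 0.62 ± 0.076 in AK069096 (adjusted p = 0.0217) and by 0.61 ± 0.076 in AK073112 (adjusted p = 0.0128).

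AT4G21910, a MATE transporter gene, had 1.37 and 1.18 on AK069096, 1.14 and 1.37 on AK073112, 0.62 and 0.63 on AK073675, 0.75 and 0.68 on AK065297, 0.38 and 0.47 on AK102323 and 0.78 and 0.77 on AK073210. The difference was 0.51 ± 0.090 in AK069096 (adjusted p = 0.0465) and 0.50 ± 0.090 in AK073112 (adjusted p = 0.0321), and AK102323 lay below all other arrays. These calls were close to the threshold and held in only 5 of 17 and 3 of 16 alternatives. AT2G36970, a UDP-glycosyltransferase gene, had 2.33 and 2.24 on AK069096, 1.73 and 2.06 on AK073112, 1.17 and 0.83 on AK073675, 1.07 and 0.90 on AK065297, 0.52 and 0.75 on AK102323 and 0.75 and 0.61 on AK073210. Both arrays of AK069096 were the highest, followed by both of AK073112. It differed by 1.24 ± 0.13 in AK069096 (adjusted p = 0.0156) and by 0.78 ± 0.13 in AK073112 (adjusted p = 0.0277).

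The genes that passed in AK069096 alone were AT2G30540, AT2G16595 and AT1G11170; whether they differ between AK069096 and AK073112 was not tested. AT2G30540 is another glutaredoxin gene of the land-plant class, and in it all 4 arrays of AK069096 and AK073112 lay above the other 8. It had 3.05 and 2.34 on AK069096, 1.38 and 1.83 on AK073112, 0.81 and 1.24 on AK073675, 1.10 and 0.96 on AK065297, 0.47 and 0.65 on AK102323 and 0.48 and 0.51 on AK073210, with no overlap between AK069096 and the other 10 arrays, and a difference of 1.75 ± 0.20 (adjusted p = 0.0188). AT2G16595, a gene for a subunit of the translocon-associated complex of the endoplasmic reticulum, had 2.31 and 2.44 on AK069096, 1.22 and 1.55 on AK073112, 1.23 and 0.68 on AK073675, 0.69 and 0.48 on AK065297, 0.49 and 0.56 on AK102323 and 0.78 and 0.39 on AK073210. AK069096 again lay above all other arrays, by 1.56 ± 0.17 (adjusted p = 0.0161). AT1G11170, left without a family, stood at 1.33 and 1.84 on AK069096, 0.40 and 0.48 on AK073112, 0.98 and 0.92 on AK073675, 0.97 and 1.24 on AK065297, 0.49 and 0.81 on AK102323 and 0.66 and 0.74 on AK073210. AK069096 lay above and AK073112 below all other arrays, and the AK069096 difference was 0.81 ± 0.15 (adjusted p = 0.0494; by the F test 0.0714).

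AT1G29640, the other DUF584 gene, ran the other way. It had 0.54 and 0.82 on AK069096, 0.084 and 0.28 on AK073112, 0.87 and 1.03 on AK073675, 0.60 and 0.99 on AK065297, 0.84 and 1.15 on AK102323 and 1.90 and 1.90 on AK073210. AK073210 lay above and AK073112 below every other array. The difference from the other 5 lines was 1.18 ± 0.14 in AK073210 (adjusted p = 0.0104) and -0.88 ± 0.14 in AK073112 (adjusted p = 0.0235). The adjusted p of the F test lay between 0.0123 and 0.028 for AT1G29640 and the other 6 genes that passed it.

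Several of these calls depended on the setting or on the choice of genes. After quantile normalization the adjusted p in AK069096 was 0.065 for AT2G30540, 0.139 for AT2G41380, 0.178 for AT1G11170, 0.129 for AT2G41410 and 0.202 for AT4G21910, so AT2G36970 and AT2G16595 alone passed. In AK073112 it was then 0.0945 for AT2G36970, 0.0508 for AT2G41410 and 0.106 for AT4G21910, and in AK073210 it was 0.0663 for AT1G29640. With array weights none of the 5 genes passed in AK073112, with adjusted p from 0.723 to 1.0. Leaving the called line out, the mean of the other 5 lines was under the minimum of 0.8 for AT1G11170 (0.77), AT2G41410 (0.78) and AT4G21910 (0.76) in AK069096, for AT2G41410 (0.78) and AT4G21910 (0.76) in AK073112 and for AT1G29640 (0.72) in AK073210. The line called thus helped to bring these genes into the set.

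**Figure D4:**
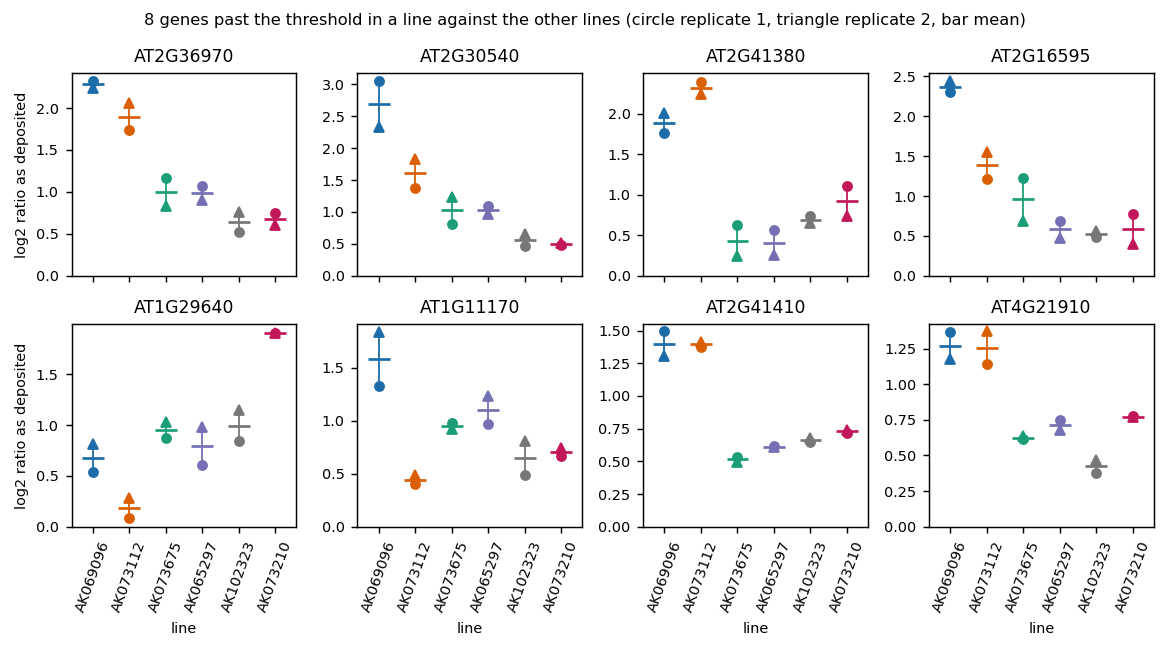
Log2 ratio on each array for the 8 genes past the threshold in a line against the other 5 lines; circles are replicate 1, triangles replicate 2, short bars the mean of the 2 arrays of a line, and each vertical axis starts at 0. In AT2G36970, AT2G30540, AT2G41380, AT2G41410 and AT4G21910 both AK069096 and AK073112 lie above the other 8 arrays. AT1G29640 is highest in AK073210.

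The spread that these tests share rests heavily on the unlike arrays of AK073112. Without both of them 51 genes passed in AK069096 against the other 4 lines, against 25.7% of all probes on either side, 50 of them with a higher ratio, against 13.5% in that direction, and 33 by the F test against 15.3%. Of the 51 genes, 17 had a mean of the other 5 lines under 0.8, so the choice itself favoured a high AK069096. These 17 were AT1G11170, AT1G11220, AT5G53420, AT3G57680, AT1G70810, AT2G32430, AT3G50910, AT4G01280, AT2G41410, AT4G21910, AT5G24155, AT4G33040, AT1G21000, AT1G51520, AT3G11580, AT2G21510 and AT1G10650. Their calls by family below carry the same limit. These means include AK073112, so over the 4 lines compared here the genes under 0.8 differ, and 17 is no upper limit. In AK073675, AK065297, AK102323 and AK073210, AT2G41380 stood at 0.43, 0.41, 0.69 and 0.92 and AT2G16595 at 0.96, 0.58, 0.53 and 0.58. Neither is among the 17. AT1G11170, which is, stood at 0.95, 1.10, 0.65 and 0.70. The choice can thus have favoured a high AK069096 in further calls given here. The 7 genes that passed in AK069096 with all arrays passed here too. AT2G36970 differed by 1.46 ± 0.11 (adjusted p = 0.000724), AT2G30540 by 1.91 ± 0.19 (adjusted p = 0.00164), AT2G16595 by 1.71 ± 0.16 (adjusted p = 0.00139) and AT2G41380 by 1.27 ± 0.16 (adjusted p = 0.00285). AT2G41410 differed by 0.77 ± 0.065 (adjusted p = 0.000931), AT1G11170 by 0.73 ± 0.15 (adjusted p = 0.0164) and AT4G21910 by 0.64 ± 0.068 (adjusted p = 0.00192). The largest differences were those of AT1G34060, 3.08 ± 0.12 (adjusted p = 0.000124), AT1G67360, 2.40 ± 0.090 (adjusted p = 0.000124), and the ankyrin repeat gene AT5G15500, 2.35 ± 0.11 (adjusted p = 0.00022). The gene with a lower ratio in AK069096 was AT1G29640, -0.48 ± 0.14 (adjusted p = 0.0437). In AK073210, 5 genes passed, against 2.24% of all probes: AT1G29640 with a higher ratio (1.05 ± 0.14, adjusted p = 0.0228) and AT1G34060, AT5G53420, AT1G15410 and AT1G67360 with lower ones, from -0.74 to -0.50. In AK102323, 3 passed with lower ratios, against 0.261% of all probes on either side: AT1G61930 (-1.12 ± 0.12), AT1G34060 (-0.94 ± 0.12) and AT5G15500 (-0.86 ± 0.11), with adjusted p from 0.0455 to 0.0479. These differences are taken against means that include AK069096, the highest line in each gene called lower in AK073210. In each of those genes the lowest line was AK102323, not AK073210. For AT1G67360 the AK073210 mean of 1.23 lay above AK073675 (1.18), AK065297 (1.10) and AK102323 (1.09), beside 3.55 in AK069096. In AK073675 (0.0558% of all probes) and AK065297 (0.177%) no gene passed by limma. There 29 and 23 of the 84 genes had an unadjusted p under 0.05, and 3610 and 3326 of all 21494 probes had one.

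Read from the arrays alone, 19 of the 84 genes had both AK069096 arrays above all 10 others, as had 5.09% of all probes. Without the AK073112 arrays 50 genes did, against 16.7% of all probes. In 12 genes all 4 arrays of AK069096 and AK073112 lay above the other 8, as in 5.24% of all probes. Besides those described above they include the ribosomal protein S4 gene AT5G39850, the AFG1-like ATPase gene AT2G25530, the RNA-binding protein gene AT1G51520, the B3 transcription factor gene AT3G11580 and AT5G14700, of the cinnamoyl-CoA reductase type. Both arrays of AK073675 lay below all others in 5 genes (1.44% of all probes) and above all others in AT4G03610 alone (1.68%).

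Of the 6 genes with a glutaredoxin or thioredoxin fold, AT2G30540 passed in AK069096, and without the AK073112 arrays 4 did, AT2G30540, AT5G11930, AT4G33040 and AT2G37240. Without those arrays 60.7% of the 84 genes and 25.7% of all probes passed in AK069096 on either side. With all arrays 0.703% of all probes passed there with a higher ratio. Counts by family, here and below, are descriptions, and no trait of a family is read from them. AT5G11930 ran from 0.37 to 2.30 with a median of 0.87, and its AK069096 mean was 2.19 against 0.60 to 1.17 in the other lines. AT4G33040 ran from 0.18 to 1.76 with a median of 0.77, with a mean of 1.59 in AK069096. AT2G37240, a protein of the thioredoxin superfamily, was among the 3 genes with the least spread between lines (SD of the line means 0.20). It had 1.35 and 1.07 on AK069096, 0.77 and 1.05 on AK073112, 0.95 and 0.89 on AK073675, 0.96 and 0.76 on AK065297, 0.77 and 0.63 on AK102323 and 0.70 and 0.58 on AK073210. AT1G64500, another glutaredoxin family gene, had the least spread of all 84, with an SD of the line means of 0.099. Its values were 1.02 and 1.02 on AK069096, 1.06 and 0.97 on AK073112, 0.80 and 0.95 on AK073675, 1.22 and 0.89 on AK065297, 1.25 and 0.97 on AK102323 and 0.84 and 0.89 on AK073210, and no line stood apart. Among the genes of this family that the tables name, 12 genes had a median mean of -0.014 over the arrays, 2 were positive on all 12, and none passed in AK069096. The named land-plant class members ROXY1, ROXY2 and GRX480 stood at 0.022, -0.050 and -0.39 over the 12 arrays. The named genes were not chosen on their values, so a lower level than in the 6 genes follows from the choice. The same holds for the named genes of other families below.

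**Figure D5:**
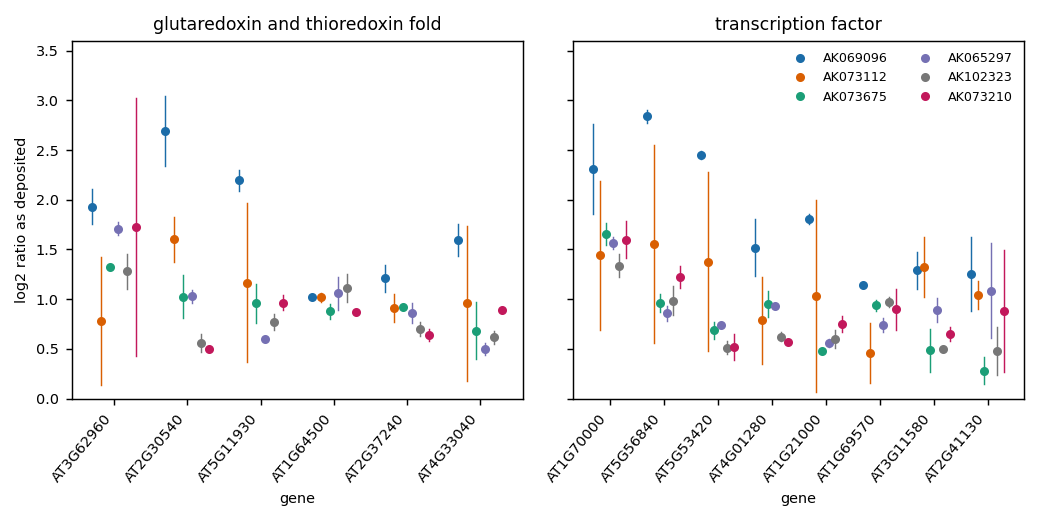
Log2 ratio of the 6 glutaredoxin and thioredoxin fold genes (left) and the 8 transcription factor genes (right) by line; points are the mean of the 2 arrays of a line and vertical lines join the 2 arrays. AK069096 has the highest mean for 5 of 6 and 7 of 8 genes, and the lines of AK073112 are long in most of them.

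Of the 8 transcription factor genes 7 had their highest mean in AK069096. None passed in the fit with all arrays, and 5 did without the AK073112 arrays, where 25.7% of all probes passed in AK069096. These were the MYB-like genes AT5G56840 (1.83 ± 0.11) and AT4G01280 (0.75 ± 0.15), the CCT gene AT5G53420 (1.83 ± 0.090), the PLATZ gene AT1G21000 (1.21 ± 0.075) and the B3 gene AT3G11580 (0.66 ± 0.15). The mean of the other 5 lines was under 0.8 for AT4G01280 (0.77), AT5G53420 (0.77), AT1G21000 (0.68) and AT3G11580 (0.77). AK069096 thus helped to bring these genes into the set. AT5G56840 ran from 0.55 to 2.90 with a median of 1.08. Both AK069096 arrays were the highest, and AK073112 replicate 2 came next. AT1G69570, a Dof gene of the kind that acts in the timing of flowering, ran from 0.16 to 1.16 with a median of 0.90. The bHLH gene AT2G41130 ran from 0.15 to 1.62 with a median of 0.80, with replicates of AK065297 and AK073210 far apart. MYBC1, the MYB gene that the tables name among the measured probes, had a mean of 0.050.

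Of the 5 oxidoreductase genes none passed with all arrays, and 4 passed in AK069096 without the AK073112 arrays, as did 25.7% of all probes. Among them was AT1G30700, of the berberine bridge enzyme family, whose members oxidise carbohydrates and alkaloids. It stood at 2.12 and 3.23 on AK069096, 4.02 and 1.92 on AK073112, 2.66 and 0.76 on AK073675, 0.13 and 1.26 on AK065297, 0.46 and 0.10 on AK102323 and 0.033 and 0.41 on AK073210. AK073112 replicate 1 and AK069096 replicate 2 were above 3, and 3 arrays were below 0.2. AT4G09750, a short-chain dehydrogenase, had line means of 1.74 in AK069096 and 0.59 to 1.30 in the others. The squalene epoxidase-like gene AT5G24155 had 1.50 in AK069096 and 0.55 to 1.03 in the others, whose mean of 0.75 was under the minimum. Of the 3 genes for enzymes of amino acids, AT1G34060 and AT1G15410 passed without the AK073112 arrays. The aminotransferase-like AT3G05190, which ran from 0.11 to 2.53 with a median of 1.26 and was highest in AK073675, did not.

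Of the 6 genes for enzymes that transfer a group, AT2G36970 and AT2G41380 passed with all arrays. Without AK073112 the galactosyltransferase family gene AT2G32430 also passed (0.87 ± 0.25). AT5G13360, of the GH3 family that joins amino acids to hormones, was highest in AK065297 (1.62) and AK069096 (1.39) and stood between 0.67 and 0.95 in the other 4 lines. The BAHD-type acyltransferase gene AT5G17540 had a line mean of 2.02 in AK073210, with both arrays above all others, and 0.26 in AK073675. Among genes that the tables name as glycosyltransferases, 47 had a median mean of 0.18 over the arrays, 8 were positive on all 12 and 4 of these had a mean of at least 0.8. In AK069096 2 of the 47 passed with a higher ratio, UGT89B1 and UGT73B5, and none with a lower one.

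The 8 genes for transport or binding of metals, lipids and solutes include 6 that were highest in AK069096. AT4G21910 passed with all arrays and 6 without AK073112 (25.7% of all probes). AT3G21690, the other MATE gene, had line means of 1.56 in AK069096 and 0.64 to 1.11 in the others and differed by 0.80 ± 0.091 without AK073112. The sugar transporter-like gene AT3G05165 ran from 0.30 to 2.49 with a median of 1.01, the folate transporter-like gene AT1G04570 from 0.42 to 2.05 with a median of 0.84 and the SEC14-like lipid transfer gene AT3G46450 from 0.30 to 2.02 with a median of 1.10. These 3 also passed without AK073112. AT4G15430, of the dehydration-responsive ERD4 channel family, was highest in AK073210 (1.34) and AK102323 (1.31) and lowest in AK073112 (0.38). Among genes with the word transporter or carrier in a symbol or synonym, 12 had a median mean of 0.093, 1 was positive on all 12 arrays and none passed in AK069096. That 1 was NRT2.5, with a mean of 2.01 and a difference of 2.60 in AK069096 (limma, adjusted p = 0.0731). Transporter genes named without these words are not counted.

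Of the 5 hydrolase genes none passed with all arrays and 3 passed without AK073112 (25.7% of all probes). The pectin acetylesterase gene AT1G57590 had line means of 2.30 in AK069096 and 0.56 to 1.45 in the others, and the S41 peptidase gene AT3G57680 2.41 and 0.37 to 1.47. For AT3G57680 the mean of the other 5 lines was 0.64, under the minimum of 0.8. AT3G15650, an alpha/beta hydrolase gene, was among the 3 genes with the least spread between lines (SD 0.17). It stood at 1.34 and 1.35 on AK069096, 0.27 and 1.95 on AK073112, 0.93 and 0.79 on AK073675, 0.91 and 1.09 on AK065297, 1.12 and 0.95 on AK102323 and 1.03 and 0.91 on AK073210, so its even line means hide AK073112 arrays that were its lowest and highest. The GDSL lipase gene AT1G74460 and the metallo-hydrolase gene AT4G03610 were highest in AK073675, at 1.51 and 1.80.

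Signalling proteins and ubiquitin ligases gave 8 genes, of which AT2G41410 passed with all arrays and 4 without AK073112 (25.7% of all probes). The protein phosphatase 2C gene AT1G67820 differed by 1.07 ± 0.14 in that fit, the C2 domain gene AT1G70810 by 0.96 ± 0.14 and the RING gene AT1G10650 by 0.78 ± 0.081. For AT2G41410 (0.78), AT1G70810 (0.79) and AT1G10650 (0.71) the mean of the other 5 lines was under 0.8, so AK069096 helped to bring them into the set. The kinase genes AT4G18250 and AT5G55560, the RCC1 repeat gene AT3G53830 and the RING gene AT5G55970 did not pass, with means over the 12 arrays of 0.97, 0.82, 0.81 and 0.80. Of the 5 genes for RNA, ribosome and protein folding, all highest in AK069096, 4 passed without AK073112: AT2G16595, AT1G51520, AT5G39850 and the DnaJ gene AT2G21510. The SART-1 splicing factor gene AT3G14700 had a mean of 0.92 and did not. For AT1G51520 (0.74) and AT2G21510 (0.73) the mean of the other 5 lines was likewise under 0.8. Of the 3 ATPase genes, AT1G43910 and AT2G25530 passed without AK073112. AT5G45720, of the AAA type, ran from 0.39 to 2.23 with a median of 0.69, with AK073210 replicate 1 the highest array.

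Of the lipid droplet, wall, lectin and repeat proteins, AT5G15500 was among the 3 genes of widest spread between lines, with 3.24 and 2.89 on AK069096, 0.98 and 2.92 on AK073112, 0.86 and 0.65 on AK073675, 0.82 and 0.86 on AK065297, 0.43 and 0.57 on AK102323 and 0.81 and 0.75 on AK073210. Both AK069096 arrays and AK073112 replicate 2 stood near 3, and AK102323 lay below all others. AT5G09480, a hydroxyproline-rich glycoprotein of the wall type, was highest in AK073675 (2.51) and lowest in AK073210 (0.44). The glycine-rich protein gene AT4G30460 was highest in AK065297 (1.51) and the jacalin-type lectin gene AT5G49870 in AK073210 (1.44). The 19 genes without a family had means over the 12 arrays from 0.82 to 1.26, and 13 were highest in AK069096. Besides AT1G11170, which passed with all arrays, 8 of them passed in AK069096 without AK073112, AT4G19430, AT3G50910, AT5G43150, AT1G11220, AT2G27180, AT5G15190, AT3G56290 and AT2G15020. The others were AT5G02580, AT5G01170, AT1G23950, AT1G62190, AT5G23490, AT1G75810, AT4G17350, AT1G67790, AT4G30830 and AT2G45840.

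On the chromosomes, 4 pairs of the 84 genes lay with 4 or fewer coding genes between them in the TAIR10.1 annotation: AT2G41380 with AT2G41410, AT1G67790 with AT1G67820, and AT3G05165 with AT3G05190, each with 2 coding genes between, and AT1G11170 with AT1G11220, with 4 between. The next nearest pair had 24 between. Another probe was listed for 1 of the 84 genes, AT5G23490. Its mean over the 12 arrays was 0.58, against 0.97 for the probe chosen, and it was positive on 8 arrays and at exactly 0 on the other 4. No sequences of the genes or probes were analysed here.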

How the data were processed

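The authors deposited 1 log10 ratio per probe and array, 21500 probes on 12 two-colour Agilent arrays; the base was taken from the form of the values and is not stated. Agilent Feature Extraction 7.1.1 is named in the submitters' processing notes. The treatment of background and dyes, not given in the sources used here, is unknown, and channel signals were not analysed here, so no probe could be checked against background, and the number of arrays limits the precision. Per the labels, amplification and labelling started from 1 µg of total RNA.

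Values were divided by 0.30103 to give log2 ratios. Of 9335 probes listed with 1 gene, 9317 matched the TAIR10.1 table by gene ID, as did all 84 genes described; a gene was locus-only where that table gives no other symbol. In all, 40 probes list several genes and 12125 none.

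Means per line were fitted with limma 3.58.1 in R 4.3.3 on 21494 probes (6 residual and 1.88 prior degrees of freedom), with each line set against the average of the 5 others (two-sided) and an F test over the 6 lines, Benjamini-Hochberg adjusted over all probes. The fit was tested on simulated data. The genes, the lists and the tests were chosen with earlier results of these data known. Genes given with every array are the 12 highest by mean, those past the threshold, and the 3 with the least and the 3 with the most spread between lines. A planned grouping by family words could not be applied, because the tables hold none for these genes, so families were given from general knowledge after the values were seen, and family members are given by range or line mean. A planned promoter search was not run, since no sequences were used here.

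Same-numbered arrays of different lines deviated together weakly at most, so the replicate numbers were not taken as pairs. The correlation of replicate deviations over 15 pairs of lines ran from -0.068 to 0.175, with 2 pairs above 0.1. Alternatives were quantile normalization, the replicate block, exact zeros as missing, array weights, and arrays left out.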

Additional observations from a re-analysis of the deposited data

Results flagged for a closer look

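These results are those in which the ratio of 1 line against Col-0 differed from that of the other 5 lines by the test of the difference itself. In AK069096 the differences were 1.24 for AT2G36970, 1.75 for AT2G30540, 0.93 for AT2G41380, 1.56 for AT2G16595, 0.81 for AT1G11170, 0.62 for AT2G41410 and 0.51 for AT4G21910. In AK073112 they were 0.78 for AT2G36970, 1.45 for AT2G41380, -0.88 for AT1G29640, 0.61 for AT2G41410 and 0.5 for AT4G21910, and in AK073210 1.18 for AT1G29640. Most stable across the settings tried were AT1G29640 in AK073210 and AT2G36970 in AK069096, past the threshold in 15 of 17 alternatives each, and AT2G41380 in AK073112, in 15 of 16. The least stable were AT4G21910 in AK073112, in 3 of 16, and AT1G11170, AT2G41380 and AT4G21910 in AK069096, in 5 of 17 each. The same arrays entered the choice of the genes. With 2 arrays a line no outlier test within a line could be made.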

How the results depend on the processing

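None of the 13 differences past the threshold changed sign under an alternative. Of 53 named differences 4 not past it did, all in AK069096: AT2G29370 went from 0.60 to -0.24, AT1G64500 from 0.034 to -0.21 and AT5G45720 from 0.030 to -0.11 after quantile normalization, and AT4G08570 from -0.10 to as high as 0.15 with 1 array left out, as did AT5G45720, to as low as -0.13. The counts of genes past the threshold moved, most of all with the AK073112 arrays. With all arrays 7 of the 84 genes passed the F test, 7 passed in AK069096, 5 in AK073112, 1 in AK073210 and none in AK073675, AK065297 or AK102323 (722, 247, 599, 311, 0, 2 and 17 of all probes). Without both AK073112 arrays the F test gave 33 genes (3290 probes), AK069096 51 (5528), AK102323 3 (56) and AK073210 5 (482), with 12 probes in AK073675 and 38 in AK065297. With array weights the F test gave 32 (2992), AK069096 42 (3606), AK073112 0 (0), AK065297 1 (257) and AK102323 7 (563). Quantile normalization gave 2 in AK069096 (42), 3 in AK073112 (200) and 1 in AK102323 (248), with 16 probes in AK073675 and 22 in AK065297. Exact zeros as missing gave 4, 0 and 30 probes in AK073675, AK065297 and AK102323. With the replicate number as a block 4 genes passed in AK069096 (53 probes), 6 by the F test (413), 4 in AK073112 (416), 1 in AK073210 (273) and 4 probes in AK102323; the adjusted p of AT4G21910 was then 0.0783 in AK069096 and 0.0552 in AK073112, and that of AT2G41380 and AT1G11170 in AK069096 0.057. The replicate numbers are not known to pair the samples. The cause of these shifts was not tested.

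With 1 array left out in turn, the number of genes past the threshold ran from 3 to 44 by the F test (136 to 5593 probes), 0 to 51 in AK069096 (29 to 5713), 2 to 30 in AK073112 (133 to 4746), 0 to 15 in AK073675 (0 to 765), 0 to 13 in AK065297 (1 to 778), 0 to 18 in AK102323 (0 to 658) and 0 to 14 in AK073210 (103 to 1183). The highest counts came without either AK073112 array. In AK069096 no gene passed without its replicate 1 and 1 passed without AK102323 replicate 1, and in AK073210 none passed without its replicate 1. A lone array of a line was assumed to vary like the other lines. The value rule gave 84 genes, 41 with a mean of at least 1, 85 after quantile normalization (83 shared) and 95 with zeros as missing (84 shared). A ratio without channel signals does not show which probes were near background.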

Other observations

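The same values on all 12 arrays, positive throughout with a mean of at least 0.8, were also found for 174 further probes, 157 of them listed with no gene and 16 with a symbol. In these 174 the line mean was highest in AK069096 for 112 and lowest in AK102323 for 58, and AK073112 replicate 2 lay above replicate 1 for 140. Among the 84 genes these counts were 57, 29 and 70. No difference between the sets was tested.

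Single arrays held the extreme values of many of the 84 genes. AK073112 replicate 1 was the lowest array for 33 genes and AK102323 replicate 1 for 13, while AK069096 replicate 1 was the highest for 28 and AK073112 replicate 2 and AK069096 replicate 2 for 14 each. AT3G62960, the glutaredoxin gene with the highest mean, had its highest value on AK073210 replicate 1 (3.02) beside 0.43 on replicate 2, and AT1G62190 had 2.31 on AK073210 replicate 2 beside 0.70 on replicate 1. The cause of these differences within a line was not tested.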
